A study of Mus musculus with 4 samples.

Results

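Gene expression was examined for 9 receptors that move T cells between blood, lymphoid tissue and other organs: the chemokine receptors Ccr7, Cxcr4 and Ccr6, the egress receptor S1pr1 and its antagonist Cd69, the hyaluronan receptor Cd44, and the integrin subunits Itga4, Itgb7 and Itgal. They were chosen by gene symbol, and all 9 were found among the 37583 features of each deposited table. The libraries come from naive CD4+ T cells of the spleen of C57BL/6 mice, sorted by flow cytometry and stimulated for 24 h on plates coated with antibodies to CD3 and CD28. All cultures were what the labels call aTh17, a Th17 condition without TGF-β: they held IL-1β and mrIL-6 at 10 ng/ml each, mrIL-23 at 20 ng/ml, and antibodies against IL-4 (clone 11B11) and IFN-γ (XMG1.2) at 10 µg/ml each. The comparison asks how transcripts in these cells differ when the protein kinase CK2 is inhibited.

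There were 4 groups of 1 library each. In the first experiment a culture with 1.5 µM DMAT, an inhibitor of CK2, was set against the control library that its title names, and in the second a culture with 1 µM CX4945, another CK2 inhibitor, was set against its own control. What the controls received in place of an inhibitor, and how many mice gave cells, is not stated in the labels. The inhibitors differed in dose and in experiment, so their values stand side by side and no difference between them was tested. With 1 library in each group, a ratio within an experiment has no replicate check and carries no p-value. The intervals given with ratios cover counting error only.

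The libraries held 2056635 to 2772525 reads in exons and 9331 to 9661 genes with at least 10 reads. All 10 T cell markers were present in each library, with a summed level of 3053 to 3255 CPM (read counts divided by library size on the usual CPM scale, with TMM scaling). Markers of other cells were scarce: 1 to 6 reads over 7 B cell genes with Cd79b, Ms4a1 and Blk at 0, 6 to 10 reads over Cd8a and Cd8b1, 0 to 3 reads over 6 NK cell genes, and 0 reads over 7 erythroid and platelet genes. The 12 myeloid markers summed to 61 to 90 reads, of which 52 to 82 fell on Cst3, a cysteine protease inhibitor, while Lyz1, Lyz2, Itgax, Tyrobp, S100a8 and S100a9 were at 0. In such bulk libraries, fewer cells of a type and less RNA per cell cannot be told apart.

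Naive T cells carry CCR7, with which they enter lymph nodes, and S1PR1, with which they leave again towards the sphingosine-1-phosphate of blood and lymph. Stimulation through the T cell receptor induces CD69, which binds S1PR1 and removes it from the cell surface, so that activated cells stay. As T cells become effectors they gain CD44 and integrins for inflamed tissue, and Th17 cells are known for CCR6, the receptor for CCL20 at epithelial surfaces.

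In exon reads, the data showed higher Ccr7 and Cd69 and lower Cd44 levels in both inhibitor libraries than in both controls. Of the 9629 genes fitted, 14.8% were higher in this way and 15.0% lower. Ccr7 was 1.94-fold higher with DMAT and 1.27-fold higher with CX4945, Cd69 was 1.41-fold and 1.16-fold higher, and Cd44 was 1.73-fold and 1.46-fold lower. Reads of Cd44 outside exons went the other way, with ratios of 1.57 with DMAT (0.977 to 2.54) and 2.39 with CX4945 (1.53 to 3.83). S1pr1, Itga4, Itgb7, Itgal and Ccr6 differed between the controls of the experiments by more than counting error. S1pr1, Itga4 and Itgal had ratios of opposite sign with the inhibitors, but only for Itgal did both intervals leave out 1. Cxcr4 had too few reads for a ratio. When both experiments were fitted together, Ccr7 was the member that passed the test, and that call depended on the model.

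**Figure D1:**
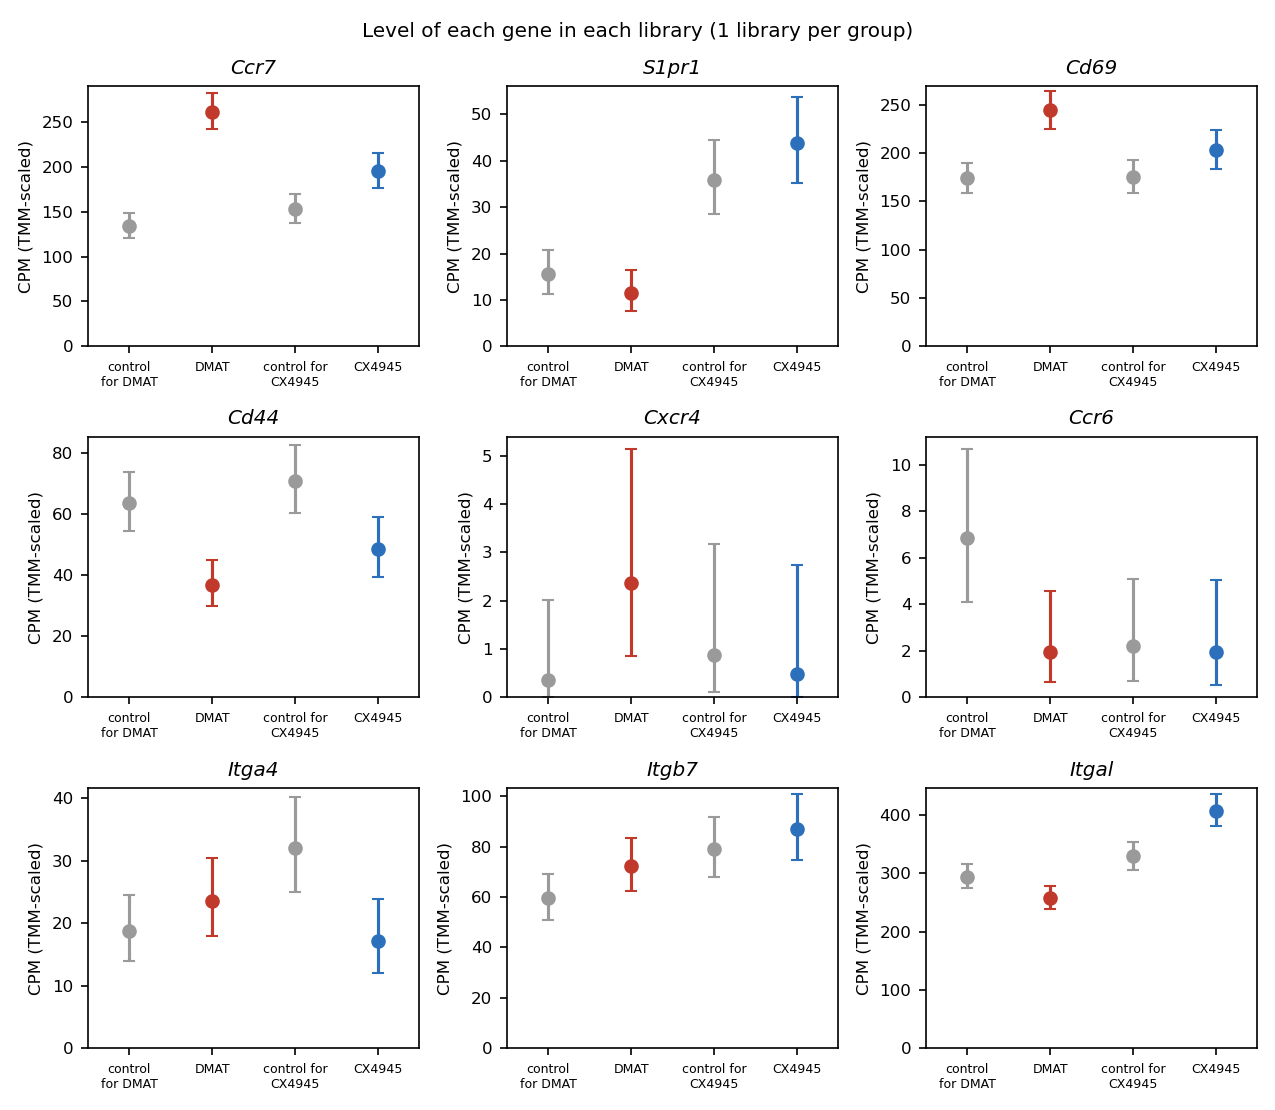
Level of exon reads of each of the 9 genes in each of the 4 libraries, on the vertical axis as TMM-scaled CPM. Points are single libraries and bars are exact 95% intervals for counting error. Ccr7 and Cd69 lie higher, and Cd44 lower, in both inhibitor libraries than in both controls, while S1pr1 separates the experiments, with 43 and 29 reads in the first and 82 and 89 in the second.

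Ccr7, the receptor for CCL19 and CCL21 that brings T cells into lymph nodes (mm9 chr11:99005510-99016391), had 373 reads in the control for DMAT, 665 with DMAT, 350 in the control for CX4945 and 397 with CX4945. These counts correspond to 134.3, 261.2, 153.2 and 195.0 CPM. Both inhibitor libraries were higher than both controls, and DMAT gave the highest value. The ratio to the titled control was 1.94 with DMAT (95% interval 1.71 to 2.21) and 1.27 with CX4945 (1.10 to 1.47), and the controls differed from each other by 1.14 (0.983 to 1.32). All 4 libraries were also fitted together, with both inhibitors as a single arm against both controls. The fit was edgeR's quasi-likelihood test with the experiment as a block and Benjamini-Hochberg adjustment over 9629 genes. There Ccr7 rose by log2 0.67 ± 0.12 (SE, edgeR, adjusted p = 0.0132), an average over compounds whose own intervals did not overlap. The call was lost without the block (adjusted p = 0.999) and in DESeq2 with the block (1.00). It stood with both other scalings, with unique reads and with no filter on reads. Refits with 1 library left out also dropped the block, so they do not show the weight of a single library alone. In those refits the log2 change was 0.44 without the library with DMAT and 0.57 without its control. It was 0.76 without the control for CX4945 and 0.86 without the library with CX4945.

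S1pr1, the receptor for sphingosine-1-phosphate that drives exit from lymphoid tissue (chr3:115413351-115417973), had 43, 29, 82 and 89 reads in the same order of libraries. The levels were 15.5, 11.4, 35.9 and 43.7 CPM. Both libraries of the experiment with CX4945 were above both of the experiment with DMAT, so the controls and the inhibitor libraries overlapped. The ratio was 0.736 with DMAT (0.443 to 1.21) and 1.22 with CX4945 (0.892 to 1.67), and both intervals hold 1. Between the controls it was 2.32 (1.58 to 3.44), a larger difference than either inhibitor gave. The joint log2 fold change was 0.01 ± 0.25 (edgeR, adjusted p = 0.997). Without the block it was 0.085. Refits with 1 library left out also dropped the block. They gave -1.15 without the library with CX4945, -0.41 without the control for DMAT, and 0.80 without the library with DMAT or the control for CX4945. These values thus take in the difference between the experiments, and its share in them was not separated.

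Cd69, the early activation antigen that holds S1PR1 inside the cell (chr6:129217342-129225387), had 482 reads in the control for DMAT and 621 with DMAT, and 400 and 413 in the control for CX4945 and with CX4945. The levels were 173.6, 243.9, 175.1 and 202.9 CPM. The controls were close, with a ratio of 1.01 (0.881 to 1.15), and both inhibitor libraries lay above them. The ratio was 1.41 with DMAT (1.25 to 1.59) and 1.16 with CX4945 (1.01 to 1.33), and neither reached 1.5. The joint fit gave log2 0.36 ± 0.10, which missed the threshold (edgeR, adjusted p = 0.176). With unique reads it passed (0.0442), and over all settings the adjusted p ran from 0.0442 to 1.00.

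Cd44, the receptor for hyaluronan and a marker of activated and memory T cells (chr2:102651298-102741822), is printed with its promoter because its lower level of exon reads was shared by both inhibitor libraries. The promoter of Itgb7 is printed beside it, as that of another member with a promoter in the table, at least 20 reads in each experiment and a ratio of the same sign in both. Promoters were matched for 5 of the 9 members in RefSeq (GRCm38.p6), as 250 bases before to 50 after the start, 5′ to 3′ on the strand of the gene, and capitals mark CACCC, a motif of Krüppel-like factors, on either strand.
Cd44 (GRCm38.p6 chr2:102901616-102901915, minus strand): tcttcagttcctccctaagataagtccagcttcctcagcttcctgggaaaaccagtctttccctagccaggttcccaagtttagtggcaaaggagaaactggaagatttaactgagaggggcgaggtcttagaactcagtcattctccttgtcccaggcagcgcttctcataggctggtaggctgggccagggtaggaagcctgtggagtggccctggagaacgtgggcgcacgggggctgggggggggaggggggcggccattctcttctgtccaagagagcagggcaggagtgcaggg
Itgb7 (GRCm38.p6 chr15:102231886-102232185, minus strand): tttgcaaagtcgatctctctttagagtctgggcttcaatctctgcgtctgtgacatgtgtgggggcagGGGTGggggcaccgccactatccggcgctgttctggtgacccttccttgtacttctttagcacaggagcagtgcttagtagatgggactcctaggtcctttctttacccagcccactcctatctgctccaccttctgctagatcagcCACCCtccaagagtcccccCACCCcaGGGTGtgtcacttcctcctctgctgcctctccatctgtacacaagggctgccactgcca
The windows were also searched for GTAAACA, a motif of FOXO factors, and for TGANTCA, a motif of AP-1. The window of Cd44 held no match to the KLF, FOXO or AP-1 letters, and that of Itgb7 held 4 matches to CACCC and none to the other motifs. Among 32851 promoters of the table, 57.5% held the KLF letters, 3.65% those of FOXO and 7.81% those of AP-1 on either strand. G and C made up 58.0% of the Cd44 window, against a median of 52.7% over all promoters.

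Cd44 had 177 exon reads in the control for DMAT, 94 with DMAT, 162 in the control for CX4945 and 99 with CX4945. The levels were 63.7, 36.9, 70.9 and 48.6 CPM, so both inhibitor libraries were lower than both controls. Against its titled control Cd44 was 1.73-fold lower with DMAT (1.34 to 2.24), and with CX4945 it was 1.46-fold lower (1.13 to 1.89), while the controls differed by 1.11 (0.893 to 1.39). The joint log2 fold change was -0.67 ± 0.16, which missed the threshold (edgeR, adjusted p = 0.0694). It passed with DESeq2's size factors (0.0374), with total exon reads as the scale (0.0252) and with unique reads (0.00787), and over all settings the adjusted p ran from 0.00787 to 1.00.

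Reads that lay within Cd44 but outside its annotated exons were more numerous where its exon reads were fewer. They numbered 32 of 209 gene reads in the control for DMAT, 46 of 140 with DMAT, 30 of 192 in the control for CX4945 and 64 of 163 with CX4945. As shares of the gene's reads these were 15.3% (exact 95% binomial interval 10.7 to 20.9), 32.9% (25.2 to 41.3), 15.6% (10.8 to 21.6) and 39.3% (31.7 to 47.2). Both inhibitor libraries were above both controls, and their intervals did not reach those of the controls. On the CPM scale the reads outside exons were 1.57-fold higher with DMAT (0.977 to 2.54) and 2.39-fold higher with CX4945 (1.53 to 3.83), and 1.14 between the controls (0.669 to 1.94). In the same order of libraries, reads outside exons stood at 11.5, 18.1, 13.1 and 31.4 CPM, beside 63.7, 36.9, 70.9 and 48.6 CPM in exons. The lower Cd44 level thus describes exon reads, and no ratio was taken over all reads of the gene. With reads that fit a single place only, the shares were 13.2%, 30.9%, 13.4% and 36.1%.

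Reads outside exons can come from introns, from exons the annotation lacks or, since the strand was not given, from the opposite strand, and these cannot be told apart here. The deposited tables count 1 putative exon in Cd44 with each inhibitor and 0 in each control, a pattern that 3 of 9629 genes had (Cd44, Rsph3a and Wdr92), and the reverse pattern was seen in 0. The last 2 genes are named because they share it, after their values were seen. The 1 other feature within Cd44, which the files list by an identifier only, had 0 reads. Reads across exon junctions of Cd44 numbered 20, 10, 28 and 19, and reads across a boundary of an intron and an exon numbered 1, 0, 1 and 0, beside 27, 42, 25 and 56 unique reads outside exons. Over all genes with at least 20 exon and 20 other reads, the median ratio of reads outside exons was 1.01 with DMAT (5855 genes) and 1.04 with CX4945 (5242 genes). Summed over all features, reads outside exons made up 12.4% to 13.0% of the gene reads in the 4 libraries. Of 5098 genes, 937 (18.4%) had a larger share outside exons in both inhibitor libraries than in both controls. Cd44 was the 1 gene among them with an exon interval below 1 and reads outside exons at least 1.5-fold higher in both experiments, a criterion written after its values were seen.

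S1pr1, Itga4, Ccr6 and Cxcr4 had 0 to 6 reads outside exons in each library, too few to look for this split. Ccr7, Cd69, Itgal and Itgb7 did not show it. The share outside exons was 5.66% to 7.77% for Ccr7, 16.1% to 17.6% for Cd69, 11.7% to 15.3% for Itgal and 10.3% to 13.0% for Itgb7, and in none of these did both inhibitor libraries lie apart from both controls by more than the counting intervals.

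**Figure D2:**
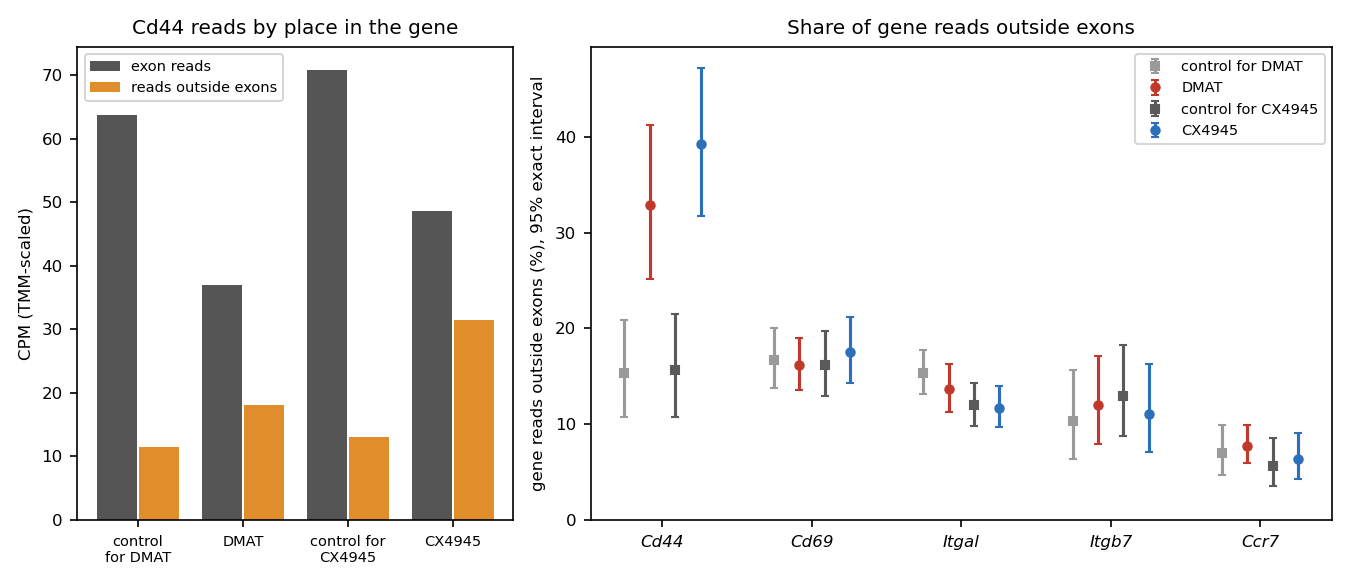
Left, reads of Cd44 in exons and outside them in each library, as TMM-scaled CPM. Right, share of each gene's reads outside exons, in percent, for the 5 members with the most reads, with exact 95% intervals; for Cd44 the inhibitor libraries stand at 32.9% and 39.3% and the controls at 15.3% and 15.6%.

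Cxcr4, the receptor for CXCL12 that retains cells in bone marrow (chr1:130484776-130488870), had 1, 6, 2 and 1 reads. A count of 0 allows up to 3 counts, which is 1.08 to 1.47 CPM per library, and Cxcr4 stood above that in the library with DMAT alone, at 2.36 CPM. A difference was not detectable at this depth.

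Ccr6 (chr17:8429077-8449992) had 19 reads in the control for DMAT, 5 with DMAT, 5 in the control for CX4945 and 4 with CX4945. The control for DMAT stood alone, at 6.84 CPM against 1.96 to 2.19 CPM in the other libraries. Ccr6 was 3.49-fold lower with DMAT (1.26 to 11.9), and the control for CX4945 was 3.13-fold lower than the control for DMAT (1.13 to 10.7). The pair with CX4945 held 9 reads, under the minimum of 20, and the gene did not enter the joint fit. The library with DMAT and the control of the other experiment thus held the same number of reads.

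**Figure D3:**
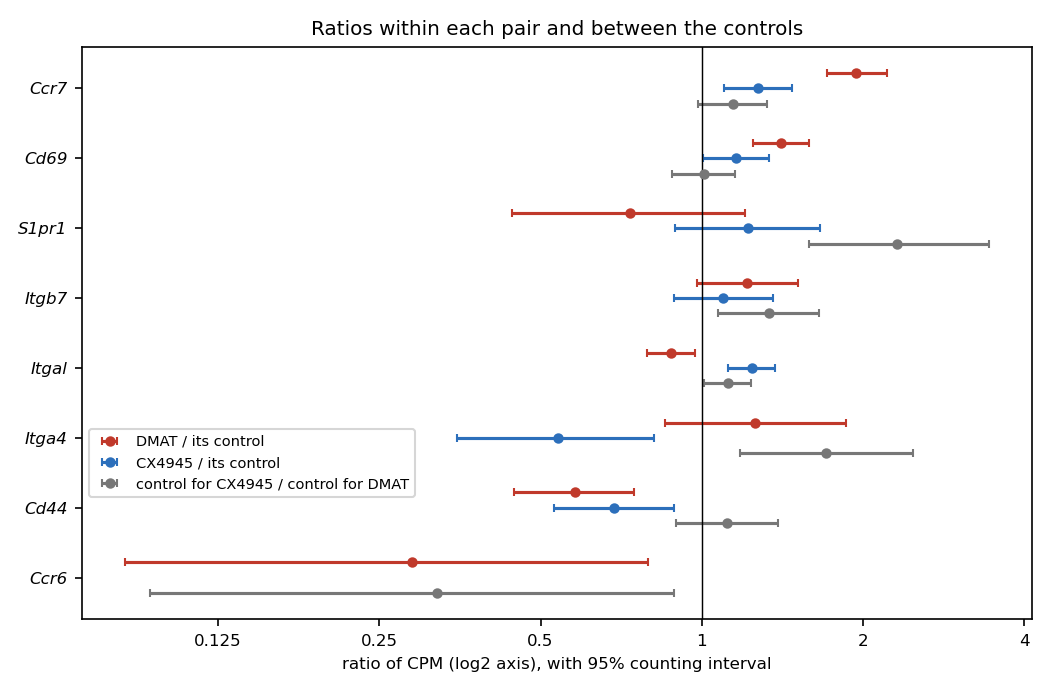
Ratio of CPM within each experiment and between the controls, on a log2 axis, with 95% counting intervals, for the 8 members with at least 20 reads in a pair. The intervals of Ccr7 and Cd69 lie above 1 and those of Cd44 below 1 with both inhibitors, and the control ratio of S1pr1, 2.32, is farther from 1 than its ratios with the inhibitors.

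Among the integrins, Itga4, the α4 chain that pairs with β7 for the gut or with β1 for inflamed endothelium (chr2:79095583-79173280), had 52, 60, 73 and 35 reads. The levels were 18.7, 23.6, 32.0 and 17.2 CPM, the highest in one control and the lowest with CX4945, and the groups overlapped. The ratio was 1.26 with DMAT (0.853 to 1.86), and Itga4 was 1.86-fold lower with CX4945 (1.23 to 2.87). The control for CX4945 was itself 1.71-fold higher than the control for DMAT (1.18 to 2.48), so against the other control the log2 ratio with CX4945 was -0.12 rather than -0.86. The joint log2 fold change was -0.26 ± 0.28 (edgeR, adjusted p = 0.928), and 0.13 without the control for CX4945 and without the block. Unique reads made up 72.3% of the Itga4 reads, and the gene overlaps Cerkl, which had 0 to 8 exon reads.

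Itgb7, the β7 chain of the receptor for MAdCAM-1 in gut venules (chr15:102046426-102062366), had 165, 184, 181 and 177 reads. At 59.4, 72.3, 79.2 and 86.9 CPM it was higher with each inhibitor than in its titled control, but the library with DMAT was below the control for CX4945. The ratios were 1.22 (0.980 to 1.51) with DMAT and 1.10 (0.887 to 1.36) with CX4945, and both intervals hold 1. The controls differed by 1.33 (1.07 to 1.66), and the joint log2 fold change was 0.21 ± 0.14 (edgeR, adjusted p = 0.836).

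Itgal, the αL chain of LFA-1, which binds ICAM-1 and arrests T cells on endothelium (chr7:134439774-134478651), had 817, 656, 751 and 829 reads. The level was 257.6 CPM with DMAT against 294.2 in its control, and 407.2 CPM with CX4945 against 328.7. The inhibitor libraries were thus the lowest and the highest of the 4. Itgal was 1.14-fold lower with DMAT (1.03 to 1.27) and 1.24-fold higher with CX4945 (1.12 to 1.37), and the controls differed by 1.12 (1.01 to 1.24). The joint log2 fold change was 0.06 ± 0.11 (edgeR, adjusted p = 0.957), and -0.28 without the library with CX4945 and without the block. Neither partner chain of the α integrins passed the joint test. Itgb2, the β2 chain of LFA-1, had log2 ratios of -0.14 and 0.14 (350, 291, 337 and 330 reads; adjusted p = 0.998), and Itgb1, the β1 chain, had -0.30 and -0.16 (510, 379, 333 and 266 reads; adjusted p = 0.659).

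Counted together, 3 of the 8 members with at least 20 reads were past 1.5-fold with DMAT: Ccr7 higher, where 4.8% of 9649 genes were, and Cd44 and Ccr6 lower, where 4.86% were. The counting interval lay above 1 for Ccr7 and Cd69 (9.24% of all genes) and below 1 for Cd44, Ccr6 and Itgal (9.69%). With CX4945, 0 of 7 members were 1.5-fold higher (3.91% of 9358 genes) and Itga4 was lower (4.18%). Intervals lay above 1 for Ccr7, Cd69 and Itgal (7.3%) and below 1 for Cd44 and Itga4 (7.42%). Between the controls the count past 1.5-fold was again 3, with S1pr1 and Itga4 1.5-fold higher in the control for CX4945 (4.16% of 9564 genes) and Ccr6 lower (4.88%). There the intervals lay above 1 for S1pr1, Itga4, Itgb7 and Itgal (9.49%) and below 1 for Ccr6 (9.16%).

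Ccr7 and Cd69 were higher in both inhibitor libraries than in both controls, as were 14.8% of the 9629 genes fitted, and Cd44 was lower, as were 15.0%. In the joint fit 1 of the 7 members tested rose (0.177% of all genes) and 0 fell (0.384%). The median log2 ratio of the members was 0.04 with DMAT (8 genes), 0.21 with CX4945 (7 genes) and 0.17 between the controls (8 genes), while that of all genes was 0.01, 0.00 and 0.00.

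Per exon length, the order of the median levels over the 4 libraries as RPKM (the scaled CPM divided by the exon length in kilobases) was Cd69 at 117 (107 to 150), Ccr7 at 88.0 (67.9 to 132.0), Itgal at 48.8 (40.4 to 63.8), Itgb7 at 27.6 (21.7 to 31.7), S1pr1 at 8.48 (3.76 to 14.4), Cd44 at 8.20 (5.39 to 10.4), Itga4 at 1.51 (1.23 to 2.29), Ccr6 at 1.10 (1.04 to 3.63) and Cxcr4 at 0.378 (0.199 to 1.30). The ranges of Cd69 and Ccr7 overlapped, as did those of S1pr1 and Cd44. Those of Itga4, Ccr6 and Cxcr4 all overlapped each other. Itgal and Itgb7 overlapped neither each other nor a neighbour.

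For the members on lymph node entry and egress, the 5 genes with the most similar course over the 4 libraries were sought among 6969 genes with at least 200 reads, by Euclidean distance of centred log2 CPM. Nearest to Ccr7 were Bcl2l11, which encodes the death protein BIM, at 0.082, and Arhgef3, Auh, Tmem18 and Pcmtd2 at 0.100 to 0.185. Nearest to S1pr1 were Egr1, an immediate early transcription factor, at 0.263, and Socs3, an inhibitor of cytokine signalling, at 0.345, followed by Cmah, Sema7a and Tapbp at 0.407 to 0.444. Egr1 stood at 93.3, 76.2, 181.7 and 258.4 CPM, higher in both libraries of the experiment with CX4945. Nearest to Cd69 were Zfp512, Atxn1l, Idh2, Tmem134 and Celsr2 at 0.0414 to 0.0632. These distances rest on 4 libraries and measure how closely the sizes of the differences among them match. They were not tested.

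The wider homing and adhesion lists held 141 other genes, of which 137 were found in the files and 89 could be tested. Of those 89, 2 rose, Tcf7 among them, 1 fell (Itga3) and 86 did not pass, against 0.177% of all genes that rose and 0.384% that fell. All 3 calls were lost without the block and in DESeq2, which gave an adjusted p of 1.00 for each. Refits with a library left out also dropped the block, so they do not show how far these calls rest on a single library. In both inhibitor libraries 12 of the 89 were higher than in both controls and 11 were lower, beside 14.8% and 15.0% of all genes.

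Tcf7, the naive T cell factor TCF-1, had 714, 1020, 788 and 895 reads and rose by log2 0.49 ± 0.09 in the joint fit (edgeR, adjusted p = 0.0144). Only 16.2% of the Tcf7 reads were unique, and with unique reads its adjusted p was 0.488. Itga3, the α3 chain of a laminin receptor, had 335, 147, 416 and 294 reads and fell by log2 0.66 ± 0.14 (adjusted p = 0.0296), with log2 ratios of -1.05 and -0.33.

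Of the 23 genes of the chemokine receptor list in the files, members included, 7 had no reads, and 6 besides Ccr7 were tested, with 0 calls. Cxcr3, the receptor of Th1 cells for CXCL9 and CXCL10, had 40, 17, 38 and 18 reads and was 2.16-fold lower with DMAT (1.20 to 4.06). With CX4945 it was 1.88-fold lower (1.05 to 3.5), so it was past 1.5-fold in both experiments, but it missed the joint threshold (edgeR, adjusted p = 0.357). Ptger4, the prostaglandin E2 receptor EP4, had 145, 190, 112 and 100 reads, and Ccr4 had 99, 116, 125 and 94, with adjusted p-values of 0.781 and 0.982.

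Of the S1P receptors and enzymes, S1pr1 included, 5 of 13 had no reads, and 0 of the 6 tested passed. Sgpp1 and Sgpl1, which degrade S1P, had adjusted p-values of 0.954 and 0.973. The log2 ratios of Sgpp1 were 0.14 with DMAT and -0.39 with CX4945, those of Sgpl1 -0.06 and 0.20, and those of S1pr2, another S1P receptor, -0.43 and 0.01. Of 38 genes of integrin activation and receptor signalling tested, 0 passed. Gng2, a G protein γ subunit, had 61, 26, 66 and 36 reads and was the gene of this list past 1.5-fold in both experiments, 2.15-fold lower (1.34 to 3.55) and 1.63-fold lower (1.07 to 2.53; adjusted p = 0.236). Coro1a, an actin regulator needed for T cell egress in mice, had 1277, 1598, 1306 and 1380 reads, with log2 0.35 ± 0.09 (adjusted p = 0.0769). Next by reads in this list, Msn, Tln1 and Rac2 had joint log2 fold changes of 0.11, 0.11 and 0.03 (edgeR, adjusted p = 0.887, 0.887 and 0.977).

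Of 11 integrin subunits tested, the 3 members included, Itga3 alone passed. The sialomucin Spn had log2 ratios of 0.00 and -0.03. Of 11 adhesion molecules and counter-receptors, a list that holds Cd44 and Cd69, 0 passed: Cd6, a receptor for ALCAM, had 0.38 and 0.06, and Icam1, the ligand of LFA-1, had -0.39 and 0.02. Of 15 chemokine genes, 8 had no reads and 1 was tested. Of 11 transcription factors known to act on these genes, Tcf7 passed. Klf2, which drives S1pr1 in naive T cells, had 8, 14, 19 and 54 reads, with a ratio of 1.91 with DMAT (0.747 to 5.25), 3.19 with CX4945 (1.86 to 5.70) and 2.89 between the controls (1.21 to 7.62; joint adjusted p = 0.141). Foxp1, a factor known for keeping naive T cells quiescent, had 499, 654, 373 and 385 reads, above its control with each inhibitor, with log2 ratios of 0.51 and 0.21 (adjusted p = 0.154). Other factors of the list did not share this, with log2 ratios of 0.27 and -0.31 for Id3 and of -0.002 and -0.19 for Elf4.

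**Figure D4:**
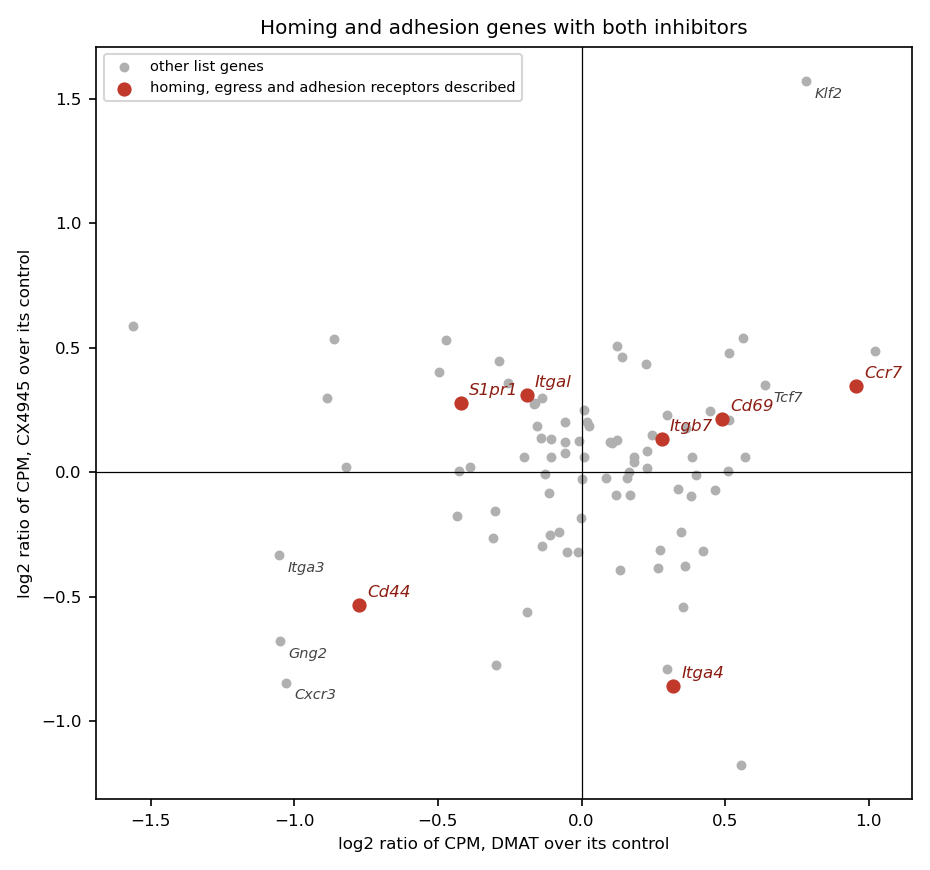
Log2 ratio of CPM with DMAT (horizontal axis) and with CX4945 (vertical axis), each against its titled control, for the members (red) and other list genes (grey) with at least 20 reads in both experiments. Ccr7 and Cd69 lie in the upper right and Cd44 in the lower left, while S1pr1, Itgal and Itga4 have opposite signs on the axes.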

How the data were processed

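Per the labels' protocols, total RNA was made into TruSeq RNA v2 libraries and read on a MiSeq. The submitters' processing notes name the build mm9 and CASAVA 1.8.2. No aligner, annotation, counting rule or strand is given in the sources used here. The value used was the count of total exon reads per gene as the authors deposited it, which includes reads that fit several places. Total gene reads, unique reads and putative exons of the same deposited tables were also read. Per the file headers, other columns hold the exon length in bases and the number of putative exons (unit: other).

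Counts were scaled by TMM (edgeR 4.0.16, R 4.3.3), with factors of 0.99 to 1.009. Log2 ratios used a prior count of 2, needed at least 20 reads in a pair and were called at 1.5-fold. Their 95% intervals are exact conditional (Clopper-Pearson) ones. The joint fit used edgeR's quasi-likelihood test with the experiment as a block, called at an adjusted p of 0.05. It set both inhibitor libraries as a single arm against both controls, so a joint change averages over compounds and doses. It leaves 1 residual degree of freedom, with 19.7 prior degrees of freedom borrowed across genes. Refits with a library left out had no block. SE is the log2 change divided by the root of F. The titles give the pairing. Across 6969 genes the difference between experiments in the controls correlated with that in the inhibitor libraries (r = 0.425, across genes, which are not independent). Nothing says that libraries came from separate animals or cultures, so p-values reflect the spread among 4 libraries, which may be technical alone. The chi-square per degree of freedom between libraries was 2.56 to 5.63, so none was a duplicate. The scripts were tested on simulated data.

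The members, the lists, the tests and the rule for named genes were chosen with earlier results of these data known. The rule named all 9 members, and from each list the genes past the joint test, those past 1.5-fold the same way in both experiments, and up to 4 others with the most reads. DESeq2 1.42.0 was an alternative. Protein sequences were not used here. Some genes that the rule covers are not reported here.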

Additional observations from a re-analysis of the deposited data

Results flagged for a closer look

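Itgal moved in opposite directions in the experiments, with a log2 ratio of -0.19 with DMAT and 0.31 with CX4945. Each interval left out 1, but with 1 library per group the difference was not tested, and the inhibitors differed in dose and experiment.

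The share of Cd44 reads outside exons, which enters none of the comparisons of exon reads, was 32.9% with DMAT and 39.3% with CX4945, above the 15.3% and 15.6% of the controls. Its source was not tested.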

How the results depend on the processing

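Each count was recomputed under other scalings, references, read classes, filters and models. Members past 1.5-fold with DMAT went from 3 to 1 when 2-fold was asked, and to 4 with the mean of both controls or with no filter on reads. With CX4945 they went from 1 to 0 at 2-fold, and to 2 with the control of the other inhibitor or with the mean of both controls. Members passing the joint fit went from 1 to 2 with DESeq2's size factors or total exon reads, and to 3 with unique reads. They went to 0 with no replicate block and to 0 in DESeq2 with the block. All genes passing went from 54 to 84, 101 and 108 with those scalings and reads, to 1 with no block (296 genes at an unadjusted p under 0.05) and to 3 in DESeq2 (93 genes), and ranged from 1 (without either control) to 73 (without DMAT) when 1 library was left out. List genes passing went from 3 to 5 with unique reads, to 0 with no block and to 0 in DESeq2. Refits with 1 library left out also dropped the block, and a lone library in a group is assumed to vary like the others. The range of genes passing in those refits therefore does not show how far the calls rest on a single library. Why the fits differ was not tested.

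For single members, 79 recomputed ratios moved by less than counting error and 10 by more, 9 of them S1pr1, Itga4, Itgb7, Itgal or Ccr7 against the control of the other experiment. Of the joint changes 56 kept their sign and their side of the threshold, 5 that were no calls turned in sign (S1pr1 in 3 settings, Itga4 and Itgal in 1 each), 4 became calls (Cd44 with 3 settings, Cd69 with 1) and 5 lost the call, all of Ccr7. The recomputed joint changes include the refits with 1 library left out, which also dropped the block. In those refits Ccr7 ran from log2 0.44 without DMAT to 0.86 without CX4945, and Cd44 from -0.87 to -0.47. Counts of 1 to 19 reads limit Cxcr4 and Ccr6, and no group has a second library.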
